A study of Homo sapiens with 6 samples.

Results

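The genes described here are the transactivator CIITA, the invariant chain CD74 and 8 genes of the HLA class II region: HLA-DRA, HLA-DRB1, HLA-DPA1, HLA-DPB1, HLA-DQA1, HLA-DQB1, HLA-DMA and HLA-DOA. They were taken by name, 10 of the 61541 genes that each count file lists, with no threshold on a measured value. The cells were RCC4, an established human line of clear cell renal cell carcinoma, a tumour of the renal tubular epithelium. An untreated group of 3 cultures was compared with a group of 3 cultures given interferon gamma (IFNγ, 1000 U/mL) and tumour necrosis factor (TNF, 25 ng/mL) together for 24 h. No genotype, transgene or vehicle is named in the labels of either group, both groups are this 1 cell line, and the cytokines were not given singly, so the share of each in a difference was not measured. Every replicate pooled the cells of 3 T75 flasks, and the labels call the replicates biological.

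RNA was read directly, as native poly(A) molecules on nanopore flow cells, and the values are reads counted per gene. Library totals were between 3626000 and 4406296 counts, so that 3 counts, the limit that a count of 0 allows, stood for 0.674 to 0.863 TMM-normalised counts per 1000000 counted reads (CPM). Such limits and the counting intervals given here cover counting error only. Untreated replicate 3 stood apart from the other untreated libraries, with a chi-square per degree of freedom of 27.7 and 24.1 against replicates 1 and 2, which gave 3.79 against each other. Where leaving it out changed a call or moved a named value by over 1.5 times, the value without it is given.

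Class II molecules are pairs of an alpha and a beta chain, of the DR, DP or DQ kind, that show peptides from endosomes to CD4+ T cells. CD74 fills the groove of new pairs and escorts them to the endosome, where cathepsins trim it and HLA-DM exchanges the last fragment for peptide, a step that HLA-DO restrains. Resting epithelial cells carry little class II, whereas dendritic cells, macrophages and B cells carry it constitutively. IFNγ acts through its receptor, the kinases JAK1 and JAK2 and the factor IRF1 on a promoter of CIITA. CIITA binds no DNA itself and docks on a complex of RFX, CREB and NF-Y that sits on the X and Y boxes upstream of class II genes and CD74.

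The upstream sequences are shown because this shared box arrangement is the feature through which CIITA is known to act on these genes. RefSeq windows (GRCh38.p14) were matched by symbol for 8 of the 10 genes, with 2 windows for HLA-DPA1, and the 250 bases before the start of each gene were searched on both strands. HLA-DRA and CIITA had no entry. The letters searched were ACNGATG, which lie within the known X box, and CCAAT, the core of the NF-Y site, and neither overlaps the other. They were chosen after the promoters had been looked at. The 130 bases before the start are given 5′ to 3′ on the strand of the gene, with every match in capitals, for HLA-DRB1 (chr6:32589849-32589978, minus strand), HLA-DQB1 (chr6:32666658-32666787, minus strand), HLA-DMA (chr6:32953098-32953227, minus strand), HLA-DQA1 (chr6:32637276-32637405, plus strand) and CD74 (chr5:150412911-150413040, minus strand).
HLA-DRB1: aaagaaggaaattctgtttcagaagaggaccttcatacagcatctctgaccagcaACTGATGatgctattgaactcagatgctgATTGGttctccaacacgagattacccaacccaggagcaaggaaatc
HLA-DQB1: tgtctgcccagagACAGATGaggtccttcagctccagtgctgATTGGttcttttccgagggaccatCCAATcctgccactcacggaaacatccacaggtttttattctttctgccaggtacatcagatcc
HLA-DMA: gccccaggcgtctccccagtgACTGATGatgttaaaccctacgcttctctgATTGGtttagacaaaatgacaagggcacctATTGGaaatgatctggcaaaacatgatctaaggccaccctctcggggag
HLA-DQA1: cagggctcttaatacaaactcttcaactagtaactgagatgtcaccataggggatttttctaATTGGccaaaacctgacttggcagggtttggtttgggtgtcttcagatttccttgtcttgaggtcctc
CD74: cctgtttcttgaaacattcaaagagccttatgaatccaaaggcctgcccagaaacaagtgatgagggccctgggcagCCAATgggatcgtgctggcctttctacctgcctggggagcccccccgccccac
In HLA-DRB1, HLA-DQB1 and HLA-DMA, ACNGATG stood on the strand of the gene, followed by an inverted CCAAT that began 29, 29 and 30 bases after the first base of ACNGATG. HLA-DQA1 held an inverted CCAAT and no ACNGATG. CD74 held CCAAT within the stretch shown, and ACNGATG on the other strand from 209 to 203 bases before its start.

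Over all 35116 windows of the table, 6.35% held ACNGATG and 32.0% held CCAAT on either strand. The arrangement of ACNGATG 20 to 40 bases before an inverted CCAAT was present in 21 windows (0.0598%). Of these, 4 belonged to class II genes, the 3 named above and HLA-DRB5, and none of the other 17 had a distance of 29 or 30 bases. Those distances were themselves read from the class II windows, so this count is no test of how particular the spacing is. HLA-DPB1 and HLA-DOA held inverted CCAAT without ACNGATG, and neither window of HLA-DPA1 held either run of letters. A match describes these letters alone, and a missing one says only that they are not in the window.

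**Figure D1:**
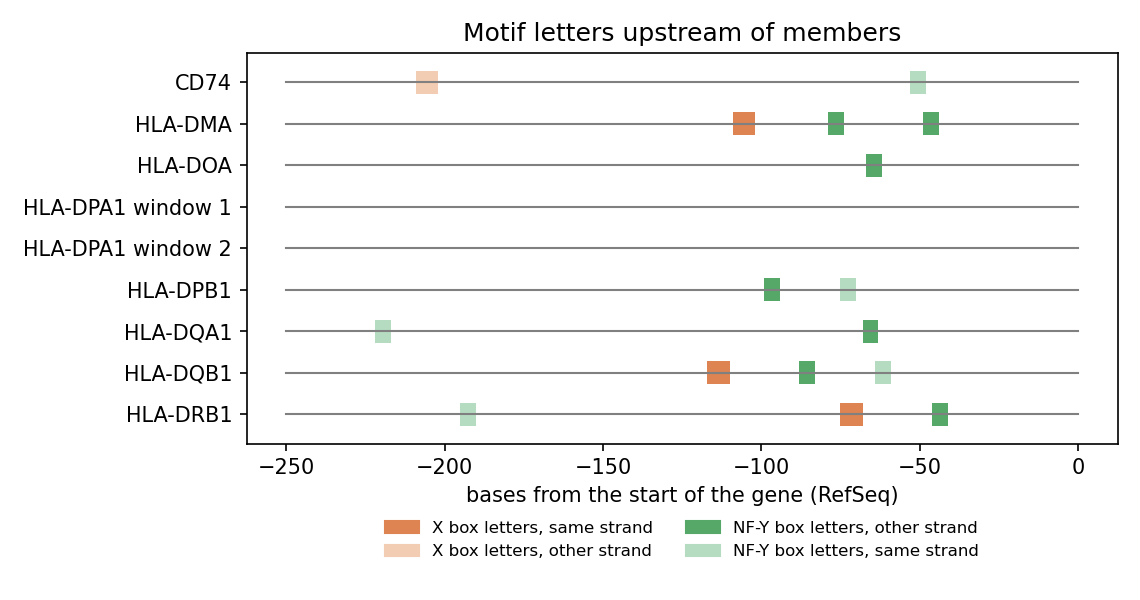
Position of the searched letters in the 250 bases upstream of each gene start (x axis, bases from the start in RefSeq), 1 row per window. Orange boxes are the X box letters and green boxes the NF-Y box letters, dark or pale by strand as in the key. HLA-DRB1, HLA-DQB1 and HLA-DMA have a dark orange box followed by a dark green one, and both HLA-DPA1 windows are empty.

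The comparison of treated with untreated cells asks how these genes responded to the cytokines. In untreated cells CD74 alone was abundant: 6 of the 10 genes had 0 counts in every untreated library, and 8 had at most 3. After IFNγ and TNF, CD74 rose about 8-fold, and HLA-DRA, HLA-DRB1, HLA-DQB1 and CIITA rose from 3 counts or fewer per library to between 15 and 216. Reads of HLA-DPA1, HLA-DPB1 and HLA-DQA1 were present in all treated libraries and in no untreated one, but at 2 to 29 counts, too few for the filter on low counts. HLA-DMA did not pass the test and HLA-DOA had 1 read in all.

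The test was edgeR's quasi-likelihood F test with Benjamini-Hochberg adjustment over all 10067 genes that passed the filter, with a threshold of 0.05 on the adjusted p. Of the 10 genes 6 were tested, and 5 of these were called higher, beside 5.58% of all genes tested (8.14% in either direction and 2.55% lower). A gene absent from untreated cells passes this filter only if it is high in treated ones, so the share of called genes among those tested says little. For 8 of the 10 genes the lowest treated library exceeded the highest untreated library, as it did for 13.9% of all genes tested, where the groups did not overlap in either direction for 25.9%. HLA-DPA1, HLA-DPB1 and HLA-DQA1 are among the 8 but were not tested, so they lie outside the set behind these shares. Among all 61541 genes, 44008 had 0 counts in the 3 untreated libraries, and 150 of these (0.341%) had counts in all 3 treated libraries. HLA-DRA, HLA-DPA1, HLA-DPB1, HLA-DQA1 and HLA-DQB1 were among the 150. In a fit on all genes with 1 count or more, all 10 genes entered and 8 were called higher, the 5 above with HLA-DPA1, HLA-DPB1 and HLA-DQA1, beside 4.43% of 19158 genes (6.93% in either direction). Adjusted p-values of all 5 called genes were far smaller in that fit (that of CD74 went from 3.79e-05 to 3.81e-33), so they are not set beside those of the filtered fit.

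**Figure D2:**
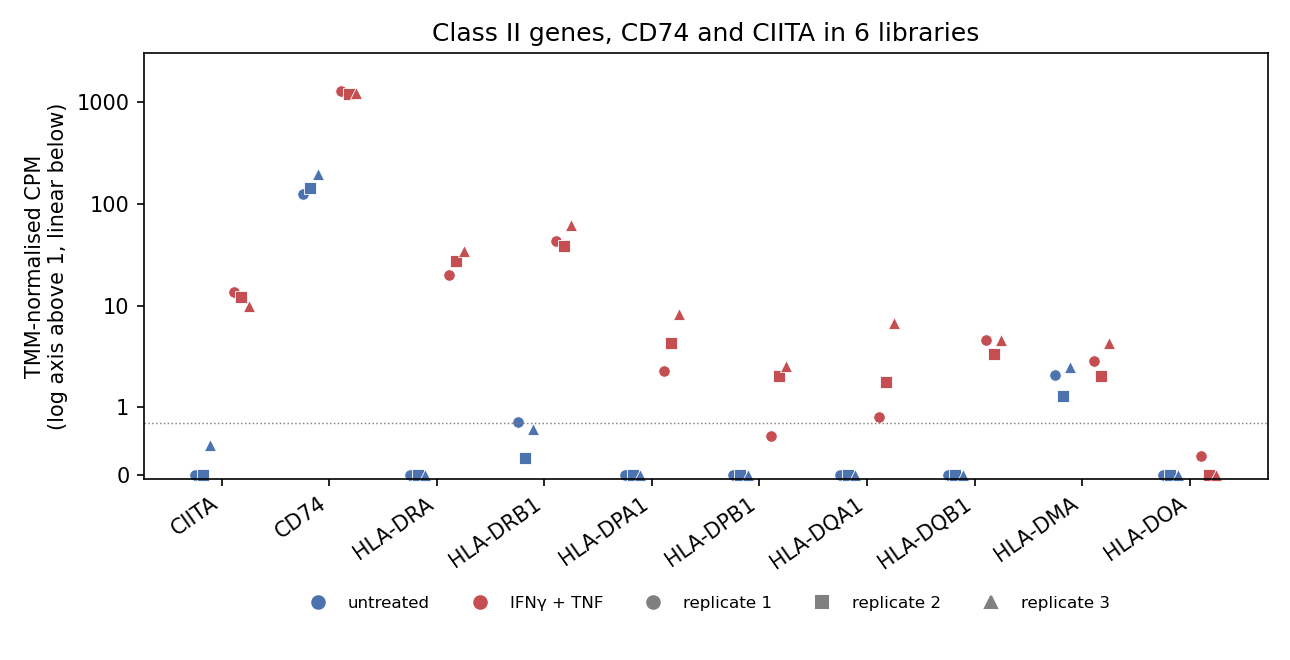
TMM-normalised CPM of the 10 genes in each of the 6 libraries (y axis, logarithmic above 1 and linear below), blue for untreated and red for IFNγ with TNF, with the replicate shown by the shape. The dotted line is the mean CPM of 3 counts. All treated points of CD74, HLA-DRA and HLA-DRB1 lie above all untreated points, the groups overlap for HLA-DMA, and HLA-DOA has 1 point above 0.

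CIITA (ENSG00000179583, chromosome 16, 10866222 to 10943021, GRCh38, plus strand) encodes the transactivator on which class II transcription depends. It had 0, 0 and 2 counts in untreated replicates 1, 2 and 3, and 47, 54 and 35 counts in treated replicates 1, 2 and 3. In CPM the treated libraries stood at 13.5, 12.1 and 9.94, or 11.9 ± 1.81 (SD, n = 3). Treated levels thus lay close together, with 95% Poisson counting intervals that overlapped (6.92 to 13.8 CPM in replicate 3, 9.94 to 18.0 in replicate 1), and well apart from the untreated ones. The ratio of summed counts, scaled to library size, was 72.1, with a 95% exact counting interval from 19.6 to 602. CIITA was called higher at an edgeR adjusted p of 0.000639. Both untreated reads were in replicate 3, so the fitted log2 fold change, 5.93 (SE 0.67), was 8.51 without that library. The untreated group was then at 0, so 8.51 depends on the prior count and is not a size. Of the CIITA exonic bases in the annotation 11.5% are shared with ENSG00000280153 on the same strand, none of them in the last 500 bases, and that gene had 0 counts in all 6 libraries.

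CD74 (ENSG00000019582, chromosome 5, 150401637 to 150412969, minus strand) was the only one of the 10 genes with more than 11 counts in any untreated library. Untreated libraries held 474, 549 and 862 counts, or 123.6, 141.3 and 194.9 CPM. Treated libraries held 4379, 5261 and 4263 counts, or 1260, 1182 and 1211 CPM. The treated values thus lay close together (SD 39.6 CPM), the untreated ones had a similar SD of 37.1 CPM around a far lower mean of 153.3 CPM (n = 3) with replicate 3 the highest, and the groups were far apart. The log2 fold change was 2.99 (SE 0.21, 95% interval 2.51 to 3.46), with an edgeR adjusted p of 3.79e-05, and it was between 2.86 and 3.19 over 13 other fits. CD74 made up between 97.7% and 98.9% of the summed counts of the 10 genes in untreated libraries. In treated libraries it made up 93.5% (95% exact binomial interval 92.8 to 94.2), 92.8% (92.1 to 93.5) and 90.2% (89.3 to 91.0).

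HLA-DRA (ENSG00000204287, chromosome 6, 32439878 to 32445046, plus strand) encodes the nearly invariant alpha chain of HLA-DR. No read was counted in untreated libraries, and treated libraries held 69, 123 and 122 counts, or 19.9, 27.6 and 34.6 CPM. Against 3 counts per untreated library HLA-DRA was at least 36.8-fold higher, with an edgeR adjusted p of 0.000186. HLA-DRB1 (ENSG00000196126, chromosome 6, 32578769 to 32589848, minus strand) encodes the polymorphic beta chain of HLA-DR. Untreated libraries held 3, 1 and 3 counts and treated libraries 148, 169 and 216, or 42.6, 38.0 and 61.3 CPM. The ratio of summed counts, scaled to library size, was 80.8 (95% exact counting interval 38.9 to 202), and the fitted log2 fold change was 6.28 (SE 0.40, edgeR adjusted p 2.01e-05). Both DR genes were highest in treated replicate 3. HLA-DRB genes are close paralogs, and a read that aligned equally well to several could be placed on another or left uncounted. Of the others listed, HLA-DRB6 and HLA-DRB9 had 0 counts in all libraries, and HLA-DRB5 had 0 counts in untreated libraries and 6, 9 and 19 in treated ones.

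HLA-DPA1 (ENSG00000231389, chromosome 6, 33064569 to 33080775, minus strand) and HLA-DPB1 (ENSG00000223865, chromosome 6, 33075990 to 33089696, plus strand) encode the chains of HLA-DP and overlap head to head on opposite strands. The counting was strand-specific. HLA-DPA1 had 0 counts in untreated libraries and 8, 19 and 29 in treated ones, or 2.30, 4.27 and 8.24 CPM. That placed it at least 6.63-fold higher, and its counting intervals in treated replicates 1 (0.994 to 4.54 CPM) and 3 (5.52 to 11.8 CPM) did not overlap. HLA-DPB1 had 0 counts in untreated libraries and 2, 9 and 9 in treated ones, or 0.575, 2.02 and 2.56 CPM, at least 2.31-fold higher. Treated replicate 1 was thus the lowest for both DP genes. HLA-DPA1 passed the filter, and was called higher, in 4 of the 6 fits that left out 1 library, those without untreated replicate 1, 2 or 3 and without treated replicate 1.

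HLA-DQA1 (ENSG00000196735, chromosome 6, 32628179 to 32647062, plus strand) and HLA-DQB1 (ENSG00000179344, chromosome 6, 32659467 to 32668383, minus strand) encode the chains of HLA-DQ. HLA-DQA1 had 0 counts in untreated libraries and 3, 8 and 24 in treated ones, or 0.863, 1.80 and 6.82 CPM, at least 4.24-fold higher. Treated replicate 3 held 24 of its 35 reads, and its counting interval (4.37 to 10.1 CPM) lay above those of replicates 1 (0.178 to 2.52 CPM) and 2 (0.776 to 3.54 CPM). HLA-DQB1 had 0 counts in untreated libraries and 16, 15 and 16 in treated ones, or 4.60, 3.37 and 4.54 CPM. It was at least 5.61-fold higher, with an edgeR adjusted p of 0.0032. The beta chain gene was thus level across the 3 treated libraries, and the alpha chain gene was not.

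HLA-DMA (ENSG00000204257, chromosome 6, 32948613 to 32969094, minus strand) encodes the alpha chain of the peptide exchanger HLA-DM. With HLA-DRB1 it was 1 of the 2 HLA genes among the 10 that were read in every library, and its counts were 8, 5 and 11 untreated, then 10, 9 and 15 treated. In CPM these were 2.09, 1.29 and 2.49 against 2.88, 2.02 and 4.26, and the groups overlapped. The log2 fold change was 0.61 (SE 0.46), with an edgeR adjusted p of 0.565 and a 95% interval from -0.44 to 1.66. That interval holds both no change and a rise of 1.66 on the log2 scale. The interval of CD74 began at 2.51 and that of HLA-DRB1 at 5.38, and the difference between genes was not tested. The upstream window of HLA-DMA carries the same arrangement of letters as those of HLA-DRB1 and HLA-DQB1. HLA-DOA (ENSG00000204252, chromosome 6, 33004182 to 33009591, minus strand), the alpha chain gene of HLA-DO, had 1 count, in treated replicate 1, and no fold is given.

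A list of 11 other genes and pseudogenes of the class II region was read beside them. None passed the filter, and 9 had 0 counts in all 6 libraries, among them HLA-DMB, the partner of HLA-DMA, and HLA-DQA2 and HLA-DQB2. The other 2 were HLA-DRB5, at least 4.09-fold higher, and HLA-DOB, the beta chain gene of HLA-DO. HLA-DOB had 0 counts in untreated libraries and 9, 2 and 8 in treated ones, at least 2.38-fold higher. HLA-DMB and HLA-DMA share 9.5% and 6.35% of their exonic bases with the read-through gene ENSG00000248993, and HLA-DOB shares 30.4% with ENSG00000250264. None of these bases lie in the last 500, and both other genes had 0 counts, but a read that touches both genes is left uncounted for each by the program's defaults. In the counts of treated libraries the mates of a pair thus differed: HLA-DMA was read without HLA-DMB, and HLA-DOB with 1 read of HLA-DOA. The part of uncounted reads in this was not tested.

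Levels of different genes were compared per kilobase (kb) of annotated exonic length. Each read came from 1 native molecule, so a count need not grow with exonic length. The order without division by length is therefore given as well. In treated libraries CD74 stood first with 269 ± 8.75 CPM per kb, followed by HLA-DRB1 with 38.5 ± 10.1 and HLA-DRA with 22.0 ± 5.95 (SD, n = 3 each). These 3 did not overlap with each other or with any lower gene. HLA-DMA (1.21 ± 0.448), HLA-DPA1 (0.859 ± 0.526) and HLA-DQB1 (0.852 ± 0.142) came next, and neighbours in this run overlapped. CIITA (0.571 ± 0.087), HLA-DQA1 (0.459 ± 0.465) and HLA-DPB1 (0.329 ± 0.196 CPM per kb) followed, again with overlap between neighbours, and HLA-DOA was last (0.0241 ± 0.0417). In untreated libraries the order was CD74 at 33.9 ± 8.21, HLA-DMA at 0.775 ± 0.243 and HLA-DRB1 at 0.466 ± 0.226 CPM per kb. The mean of HLA-DMA thus stood above that of HLA-DRB1 in untreated cells, but their ranges overlapped (0.511 to 0.987 and 0.209 to 0.636). In treated cells HLA-DMA stood below both DR genes, while its own level did not pass the test. The annotated exons of CIITA sum to 20763 bases over all its isoforms, which lowers its value per kb. Without division by length CIITA (11.9 CPM) came directly after the DR genes, HLA-DMA (3.05 CPM) came after HLA-DPA1 (4.94), HLA-DQB1 (4.17) and HLA-DQA1 (3.16), and 9 genes were at 1 CPM or more, against 4 at 1 CPM per kb or more.

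**Figure D3:**
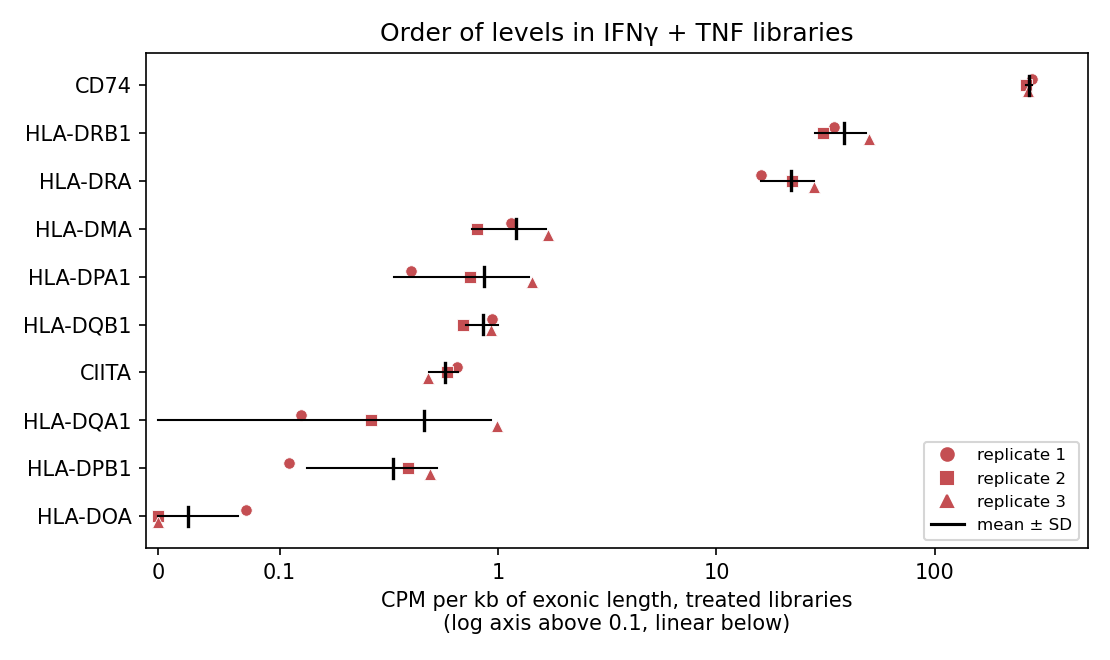
CPM per kb of exonic length in the 3 treated libraries (x axis, logarithmic above 0.1 and linear below), 1 row per gene in order of the mean. Points are libraries, with the replicate shown by the shape, the tick is the mean and the bar is 1 SD to each side. CD74 lies between 261.1 and 278.4, the DR genes between 15.96 and 49.91, and all other genes below 2 CPM per kb.

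Ratios within each treated library compared the chains of a pair, and they are levels with no test. The log2 ratio of HLA-DRA to HLA-DRB1, per kb, was -1.12, -0.48 and -0.84 in replicates 1, 2 and 3, with a mean of -0.81 ± 0.32 (SD, n = 3). The beta chain gene of HLA-DR was thus the higher in every treated library, and adding the reads of HLA-DRB5 to it gave -0.90, an addition chosen after the data had been seen. In replicate 2 the counting intervals of HLA-DRA (22.96 to 32.96 CPM) and HLA-DRB1 (32.45 to 44.13 CPM) overlapped. For HLA-DPA1 to HLA-DPB1 the log2 ratio was 1.86, 0.94 and 1.55, so here the alpha chain gene was the higher in every library. These ratios rest on 8 and 2, 19 and 9, and 29 and 9 reads. The counting intervals of both genes in CPM overlapped in replicates 1 and 2. For HLA-DQA1 to HLA-DQB1 it was -2.91, -1.40 and 0.09, with a mean of -1.40 ± 1.50, and the libraries went both ways. The one positive value, in replicate 3, was small, and the counting intervals there overlapped (4.37 to 10.1 and 2.60 to 7.38 CPM). CD74 exceeded the sum of the 6 DR, DP and DQ chain genes by 1.71 (replicate 3) to 2.42 (replicate 1) on the log2 scale per kb, and by 3.82 on average without division by length.

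Summed over the 6 chain genes, untreated libraries held 3, 1 and 3 counts and treated libraries 246, 343 and 416. All untreated reads of the 6 were HLA-DRB1. In treated libraries HLA-DRA and HLA-DRB1 gave 88.2% (95% exact binomial interval 83.5 to 92.0), 85.1% (80.9 to 88.7) and 81.3% (77.2 to 84.9) of these counts. HLA-DP gave 4.07%, 8.16% and 9.13% and HLA-DQ 7.72%, 6.71% and 9.62%. HLA-DR was therefore the main class II kind in every treated library.

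The order of the treated replicates was not the same for all of these genes. CIITA had its highest level in treated replicate 1 and its lowest in replicate 3, although the counting intervals overlapped. CD74 and HLA-DQB1 were also highest in replicate 1, with replicate 3 next and replicate 2 lowest. The counting intervals of HLA-DQB1 (16, 15 and 16 counts) all overlapped. So did those of CD74, except between replicates 1 (1223 to 1298 CPM) and 2 (1150 to 1214 CPM). HLA-DRA, HLA-DRB1, HLA-DPA1, HLA-DPB1 and HLA-DQA1 had their highest level in replicate 3. For HLA-DRA, replicate 1 (15.5 to 25.1 CPM) and replicate 3 (28.8 to 41.4 CPM) differed by more than counting error. With 3 libraries this order was not tested.

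Of 13 genes on the route from the IFNγ receptor to CIITA, 11 were tested, 5 rose and none fell. Over all genes tested, 5.58% were called higher and 2.55% lower. The median log2 fold change of the list was 0.61, beside -0.03 for all genes tested. IRF1, a factor that acts on the IFNγ-responsive CIITA promoter, went from 32.1, 40.4 and 28.9 CPM to 1505, 1247 and 1224 CPM (log2 fold change 5.29, SE 0.22, edgeR adjusted p 3.34e-06). IRF2, which can bind the same promoter element, rose by 2.25 on the log2 scale (SE 0.21, edgeR adjusted p 0.00024). SOCS1 and SOCS3, feedback inhibitors of JAK signalling, rose by 5.15 and 3.89 on the log2 scale (edgeR adjusted p 3.84e-05 and 4.39e-05). The receptor chains IFNGR1 and IFNGR2 (log2 fold change 0.27 and 0.61) and the kinase JAK1 (-0.19) did not pass the test. JAK2 had 1, 3 and 3 counts untreated and 2, 20 and 15 treated, and IRF8 at most 2 counts in any library, so neither passed the filter. JAK2 was called higher in the fit on all genes with 1 count or more and in the fit without treated replicate 1. With all libraries its groups overlapped, at 0.772 CPM in untreated replicate 2 and 0.575 CPM in treated replicate 1.

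Of 17 genes for the promoter complex and its cofactors, 14 were tested, 1 rose and none fell, with a median log2 fold change of -0.06. Among all genes tested 5.58% were called higher, so 1 call among 14 is near that share. The one was RFX5, the large DNA-binding subunit of RFX, with 91, 93 and 113 counts (23.7 to 25.5 CPM) untreated and 135, 178 and 146 counts (38.8 to 41.5 CPM) treated. Its groups did not overlap, and the log2 fold change was 0.71 (SE 0.18), but the edgeR adjusted p of 0.047 lay just under the threshold. The call was lost in 7 of 13 other fits (adjusted p from 0.0228 to 0.194 over all 13), including scaling to library totals and every fit without 1 library but that without untreated replicate 3. RFXANK, another RFX subunit, had a log2 fold change of -0.24 (SE 0.21), and RFXAP, the third, had 8, 8 and 16 counts untreated and 6, 9 and 2 treated and was not tested. The NF-Y subunits NFYA, NFYB and NFYC had log2 fold changes of -0.16, -0.06 and 0.23, and CREB1 of 0.48 (SE 0.32), none of them past the test. The coactivators CREBBP and EP300 stood at -0.13 and -0.06. RFXAP, KAT2B and PRDM1 did not pass the filter. All genes of this list but PRDM1 were read in every untreated library, whereas CIITA had 2 counts in all of them together. What this difference means for the class II genes was not tested.

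Of 18 genes for antigen processing on the class II route, 15 were tested, 2 rose and none fell, with a median log2 fold change of 0.28. The share called higher over all genes tested was 5.58%. CTSS, the cathepsin that makes the last cuts in the invariant chain, had 1, 1 and 3 counts untreated and 491, 1076 and 1163 treated. The groups lay far apart, with a ratio of summed counts of 579 (95% exact counting interval 248 to 1785) and an edgeR adjusted p of 9.68e-06. Its fitted log2 fold change was 9.07, and 9.67 without untreated replicate 3. CTSZ, a carboxypeptidase, went from 104.3, 90.8 and 131.1 CPM to 328.8, 323.0 and 333.1 CPM, which was 1.59 on the log2 scale (SE 0.19, edgeR adjusted p 0.000822). The proteases LGMN, CTSB and CTSL had log2 fold changes of 0.98, 0.98 and 0.88 and edgeR adjusted p-values of 0.0783, 0.147 and 0.253, and each passed the threshold in some other fits. Without untreated replicate 3, LGMN was called higher at 1.32 on the log2 scale (edgeR adjusted p 0.00353) and CTSB at 1.30 (edgeR adjusted p 0.0221). IFI30, a thiol reductase of the endosome, had 0 counts in all 6 libraries, as did LAMP3 and the ubiquitin ligase MARCHF1. Exons of another gene cover 64.6% of the last 500 exonic bases of IFI30 on the same strand, and a read that touches both is left uncounted by the program's defaults.

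**Figure D4:**
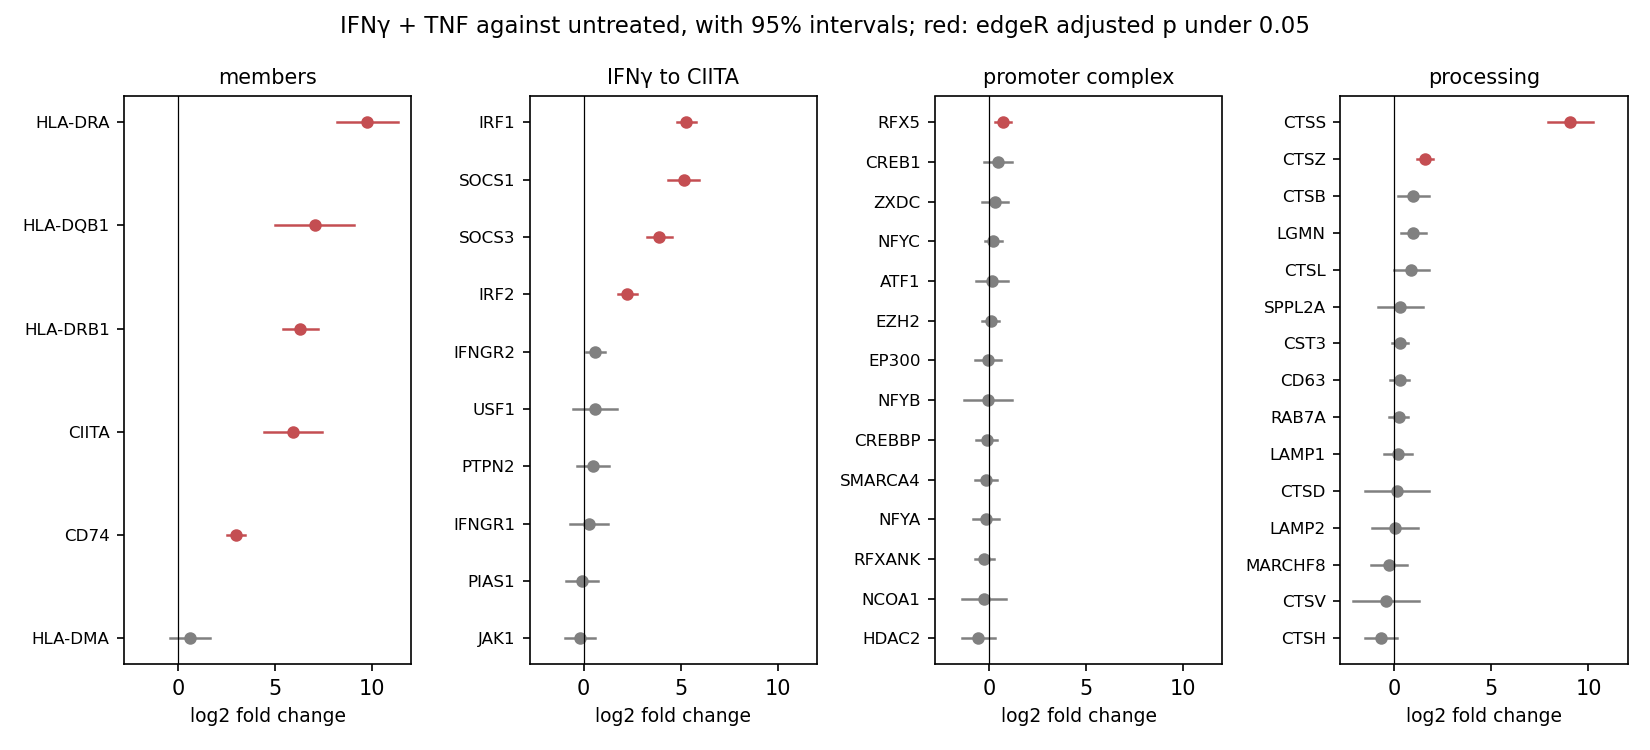
Log2 fold changes of tested genes whose single values are reported (x axis, IFNγ with TNF against untreated) in 4 lists, with 95% intervals, red where the edgeR adjusted p was under 0.05. Values for HLA-DRA and HLA-DQB1, with 0 untreated counts, and for CIITA depend on the prior count and are not sizes. Of the genes for the promoter complex RFX5 alone is red, at 0.71, whereas IRF1, SOCS1 and SOCS3 lie above 3.

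The class I genes served as a comparison with the other branch of presentation. NLRC5, the relative of CIITA that acts on class I promoters, held 50, 43 and 50 reads untreated, then 410, 434 and 304. It was thus read in untreated cells, where CIITA was at or near 0, and rose by 3.09 on the log2 scale (SE 0.21, edgeR adjusted p 3.62e-05). Of 11 class I genes 10 were tested and all 10 rose, beside 5.58% of all genes tested. Among them were HLA-B, HLA-C, HLA-E, HLA-F, B2M, TAP1, TAP2 and TAPBP, and the median log2 fold change was 3.04. HLA-G had 0 counts in all 6 libraries. Per kb, HLA-B went from 99.6 ± 5.24 to 908.5 ± 83.5 CPM and B2M from 90.7 ± 42.4 to 545.3 ± 174 CPM (SD, n = 3 each). Treated HLA-DRB1, at 38.5 CPM per kb, was thus below untreated HLA-B, and treated CD74, at 269 CPM per kb, was above it.

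The libraries were read for other cells that could carry class II. Of 21 markers of professional antigen-presenting cells and other leukocytes, 16 had 0 counts in all 6 libraries, among them PTPRC, MS4A1, LYZ, TYROBP, SPI1, CD80 and CD86, and 19 had at most 3 counts in every library. CD68 was also at 0, but another gene on its strand covers 81.6% of its exonic bases. The summed level of the list was 3.62 to 7.04 CPM in untreated and 1.35 to 3.17 CPM in treated libraries. In untreated libraries most of it was CSF1R, with 22, 21 and 13 counts untreated and 5, 5 and 4 treated (log2 fold change -1.90, edgeR adjusted p 0.0314, lost in 7 of 13 other fits). The other gene above 3 counts, ITGAX, had 2, 0 and 0 counts untreated and 4, 0 and 3 treated. CD14 and ITGAM had 0 counts untreated and 2 reads each over the treated libraries, and FLT3 had 3, 2 and 3 untreated and none treated. The part of these few reads in the class II result was not tested.

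Markers of the line's own origin were read in both groups. Of 12, 11 were tested, among them the clear cell carcinoma marker CA9 (38.5 ± 7.49 CPM untreated and 38.0 ± 6.96 treated, SD, n = 3 each), PAX2, KRT8 and KRT18, and LRP2 was at 0 in all libraries. VIM and VEGFA rose (log2 fold change 0.66 and 1.57, edgeR adjusted p 0.0274 and 0.00302) and PAX8 fell by 0.79 on the log2 scale (edgeR adjusted p 0.0316). Shares over all genes tested were 5.58% called higher and 2.55% lower. The calls of VIM and PAX8 were lost in 4 and 5 of the 6 fits without 1 library. In these bulk samples a change in the number of cells that carry a transcript and a change in the RNA per cell cannot be told apart.

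Genes with a profile over the 6 libraries like that of CD74 or HLA-DRA were sought among the genes that passed the filter. The measure was the root mean square difference of centred log2 CPM (prior count 2). For CD74 the nearest genes were RNF213 (difference 0.126), ACSL5 (0.128), SHFL (0.169), HLA-E (0.175) and EXOC3L1 (0.206). RNF213 counts were 53, 54 and 80 in the untreated group, then 540, 604 and 478 in the treated one. For HLA-DRA they were SLC15A3 (difference 0.227), WARS1 (0.235), TEX29 (0.255), C1R (0.261) and HLA-DRB1 (0.326). HLA-DRA was at 0 in untreated libraries, so its untreated level here, and with it this order, depends on the prior count. WARS1 was not absent from untreated cells, with 208, 218 and 227 counts there and 9819, 11979 and 10020 in treated ones. SLC15A3, an endolysosomal peptide transporter, was at 0 in every untreated library, then at 84, 88 and 108 counts. HLA-DRB1 was the only one of the 10 genes among the nearest of either. HLA-DPA1, HLA-DPB1, HLA-DQA1 and HLA-DOA did not pass the filter and could not be listed. The likeness rests on 6 libraries that all share the same contrast.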

How the data were processed

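Poly(A) RNA of 3 untreated and 3 cytokine-treated RCC4 cultures (500 ng per library) was sequenced directly for 72 h, 1 flow cell per library, and reads with Q above 7 were used, per the labels' protocols. The files hold deposited counts of reads per gene, made with featureCounts 2.0.1 in long-read, strand-specific mode on Ensembl release 105 exons (GRCh38), per the file headers. The submitters' processing notes name featureCounts 2.0.0, minimap2 2.24 and SAMtools 1.16. The options for multi-mapping and multi-overlapping reads were not set, per the file headers. Alignment names in those headers carry the word dmso, which no label mentions, and groups were taken from the titles.

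Symbols came from a name table (61369 of 61541 identifiers) or GENCODE 29 (159). Counts were tested with edgeR 4.0.16 (R 4.3.3) by the quasi-likelihood F test with TMM normalisation, filterByExpr, group as the sole term and Benjamini-Hochberg adjustment, tested first on simulated counts. CPM are counts over the library total times its TMM factor. The SE is the absolute log2 fold change over the square root of F. A fold against a group at 0 uses 3 counts per library. Shares have exact Clopper-Pearson intervals and levels exact Poisson intervals. Replicates differed by more than sampling error (chi-square over its degrees of freedom 3.79 to 27.7), so each library counted once.

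Named genes were the 10 genes, called genes of the other lists (single values of some are not reported here), the lists for the class II region, the promoter complex and the IFNγ route where a role is described, and the 5 nearest profiles to CD74 and HLA-DRA. LGMN, CTSB, CTSL, ITGAX, CA9, PAX2, KRT8, KRT18 and genes at 0 were named after their values were seen. The genes, the lists and the tests were chosen with earlier results of these data known. Alternatives were DESeq2 size factors, library totals, other filters, a replicate block, DESeq2 1.42.0, limma 3.58.1 voom, leaving out each library, and no division by length.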

Additional observations from a re-analysis of the deposited data

How the results depend on the processing

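Of 819 genes called, the count was 795 to 968 under DESeq2 size factors, library totals, a filter of 10 counts in 3 libraries, the DESeq2 Wald test and limma voom. It was 1328 in a fit on all genes with 1 count or more, and 455 (without treated replicate 3) to 1178 (without untreated replicate 3) when 1 library was left out. The 5 class II calls were 8 in that fit, and 5 to 6 without 1 library. The 8 calls among the other class II, promoter complex, IFNγ route and processing genes became 13 in it, and 7 to 10 without 1 library. The number of genes at 1 CPM per kb or more in treated cells, 4, became 9 without division by length and 3 to 5 without 1 library. The log2 ratio of CD74 to the 6 chain genes went from 2.12 to 3.82 without division by length, and that of CD74 to CIITA from 8.89 to 6.69. Leaving out 1 treated library gave -0.98 to -0.66 for HLA-DRA to HLA-DRB1, 1.25 to 1.71 for HLA-DPA1 to HLA-DPB1, -2.15 to -0.65 for HLA-DQA1 to HLA-DQB1, 1.98 to 2.33 for CD74 to the chain genes and 8.77 to 8.96 for CD74 to CIITA. Among the values of 41 named genes under 13 other fits, 500 kept their direction and side of the threshold, 23 fell out of the call, 10 came into it and 0 reversed. HLA-DMA was called under none of the 13 (adjusted p 0.408 to 0.923). Floors of 3 counts over the whole untreated group instead of each library raised the bound of HLA-DRA to 110.8-fold and that of HLA-DPB1 to 6.95-fold. HLA-DPA1, HLA-DPB1, HLA-DQA1 and HLA-DOA had too few counts to pass the filter of the main test.

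The groups share replicate numbers, but no label says that these pair the samples. Deviations from the group means of same-numbered libraries correlated at 0.651, -0.0037 and 0.374 for numbers 1, 2 and 3. The same-numbered value was the highest for treated replicates 1 and 3, while untreated replicate 2 correlated best with treated replicate 1 (0.249). With 3 libraries per group these values cannot decide whether the samples are paired. With the replicate number as a block 1513 genes were called, with the same 5 class II genes, and CTSB, CTSL and LGMN higher and CTSH lower as added calls.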
